A study of Rattus norvegicus with 6 samples.

Results

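The genes described here build, import into, shape and maintain mitochondria. They were taken from the count table by symbol: every gene whose name starts with Timm or Tomm and a number (26 genes), plus 21 genes listed by name for fusion and fission, inner membrane proteases and prohibitins, mitophagy, biogenesis, and mitochondrial DNA. The 26 are called translocase genes here, after the inner and outer membrane translocases, although Tomm34 is a cytosolic cochaperone. All 47 had a row among the 16319 symbols of the table, with prohibitin 1 found under its older symbol Phb. The rule goes by symbol alone, but it was written with earlier results of these data known. RNA-seq was compared between Nono-KO and WT cells of H9c2, a myoblast line from embryonic rat heart, with 3 libraries each. Nono-KO cells came from H9c2 cells that received a CRISPR-Cas9 plasmid with a guide to exon 6 of Nono and were selected with puromycin, which left a 2-base deletion with a frameshift. WT cells are labelled wild type, and pEGFP-N1 is given as the control plasmid. Both were grown in DMEM with fetal bovine serum. The study's scheme shows a single expanded knockout clone, the methods call the 3 libraries of a group biological replicates, and the labels do not say whether they came from separate cultures. The p-values given here therefore speak to variation among these 6 libraries, and clone-to-clone variation is not covered.

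Almost all mitochondrial proteins are encoded in the nucleus and made in the cytosol. They enter through the TOM complex of the outer membrane. The TIM23 translocase then moves proteins with a presequence into or across the inner membrane, and small TIM chaperones carry hydrophobic carrier proteins to the TIM22 translocase. Mitofusins and Opa1 fuse the membranes, whereas the dynamin Dnm1l (Drp1), held at the outer membrane by receptors such as Mff, divides the organelle. The coactivators Ppargc1a and Ppargc1b, with the transcription factors Nrf1 and GABP, raise transcription of nuclear genes for mitochondrial proteins, among them Tfam, which packages mitochondrial DNA and activates its promoters. Heart muscle is among the tissues richest in mitochondria.

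The libraries held 17612958 to 18770188 counts in Nono-KO and 18138400 to 19253858 counts in WT. Nono had 109, 94 and 96 counts in Nono-KO libraries 1 to 3, against 7329, 5884 and 5519 in WT libraries 1 to 3. The first principal component separated the groups and took 88.7% of the variance, and on the second (4.96%) WT replicate 1 lay at 29.1, apart from the other WT libraries at -15.3 and -11.1. The labels name cardiac muscle as the source, yet the cardiomyocyte genes Myh7, Nppa, Ryr2 and Myl7 had at most 7 counts in any library, while Tnnt2 (269 to 2583 counts), Nkx2-5 (356 to 758) and Gata4 (283 to 362) of the same list were present. The skeletal myoblast genes Myod1 and Cdh15 had at least 2185 counts in each library, and Chrna1 of that list had 2 to 13. Myf5, Myf6 and Pax7 of that list had no row and are not in its sum. Summed myoblast markers were at 870 to 968 CPM (counts scaled to library size) in Nono-KO and 565 to 748 CPM in WT libraries. Within this list Myog (log2 fold change 4.03) and Des (2.13) rose. Cdh15 (0.24, edgeR adjusted p = 0.0704) and Myod1 (0.26, edgeR adjusted p = 0.0501), which made up most of the sum, did not pass. The T cell gene Cd3e also rose, with 871 to 988 counts in Nono-KO and 69 to 137 counts in WT libraries. Summed fibroblast markers, nearly all collagen, were at 28730 to 33866 CPM in Nono-KO and 37186 to 45061 CPM in WT libraries. Within this list Col1a1 (log2 fold change -0.47) and Col1a2 (-0.42) fell, Thy1 (0.33) rose and Col3a1 (0.05) did not pass. Pdgfra, Dcn and Lum had at most 9 counts in any library, and Fap had no row. Summed cardiomyocyte markers, mostly Tnnt2 and Nkx2-5, were at 172 to 199 CPM in Nono-KO and 48.7 to 127 CPM in WT libraries. Nkx2-5 rose (0.96), whereas Tnnt2 did not pass (log2 fold change 1.14, SE 0.66, edgeR adjusted p = 0.18). Tnnt2 had 269 counts in WT library 1, against 1459 and 1492 in WT libraries 2 and 3. Endothelial and epithelial markers each summed to under 5 CPM in every library. The part of these marker differences in the results below was not tested. In bulk libraries such as these, fewer cells of a type and less RNA per cell cannot be told apart.

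The 47 genes did not move as a block (the plot of log2 fold changes by role). Of the 43 that passed the filter on low counts, 15 rose, 13 fell and 15 did not pass at a Benjamini-Hochberg adjusted p under 0.05 from edgeR, taken over all 12028 genes tested. Their median log2 fold change (Nono-KO over WT) was 0.11, against -0.05 over all genes tested. Many genes changed in these cells: 34.2% of all genes tested rose and 38.1% fell, so the 34.9% and 30.2% among these genes are near that background. By role the counts were uneven, a difference not itself tested. Of the 23 tested translocase genes 11 rose and 1 fell, with a median of 0.23, whereas of the 20 tested genes listed by name 4 rose and 12 fell, with a median of -0.28. With the stricter thresholds of the study, which ask for an adjusted p below 0.01 plus a log2 fold change beyond 1 in either direction, 1 gene rose (Timm13) and 5 fell (Ppargc1b, Dnm1l, Gabpa, Opa1 and Tfb2m). Those thresholds were passed by 10.8% (rose) and 18.7% (fell) of all genes. Every Nono-KO library was above every WT library in scaled CPM for 17 of the 43 genes and below for 14, where 36.1% and 39% of all genes did so.

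**Figure D1:**
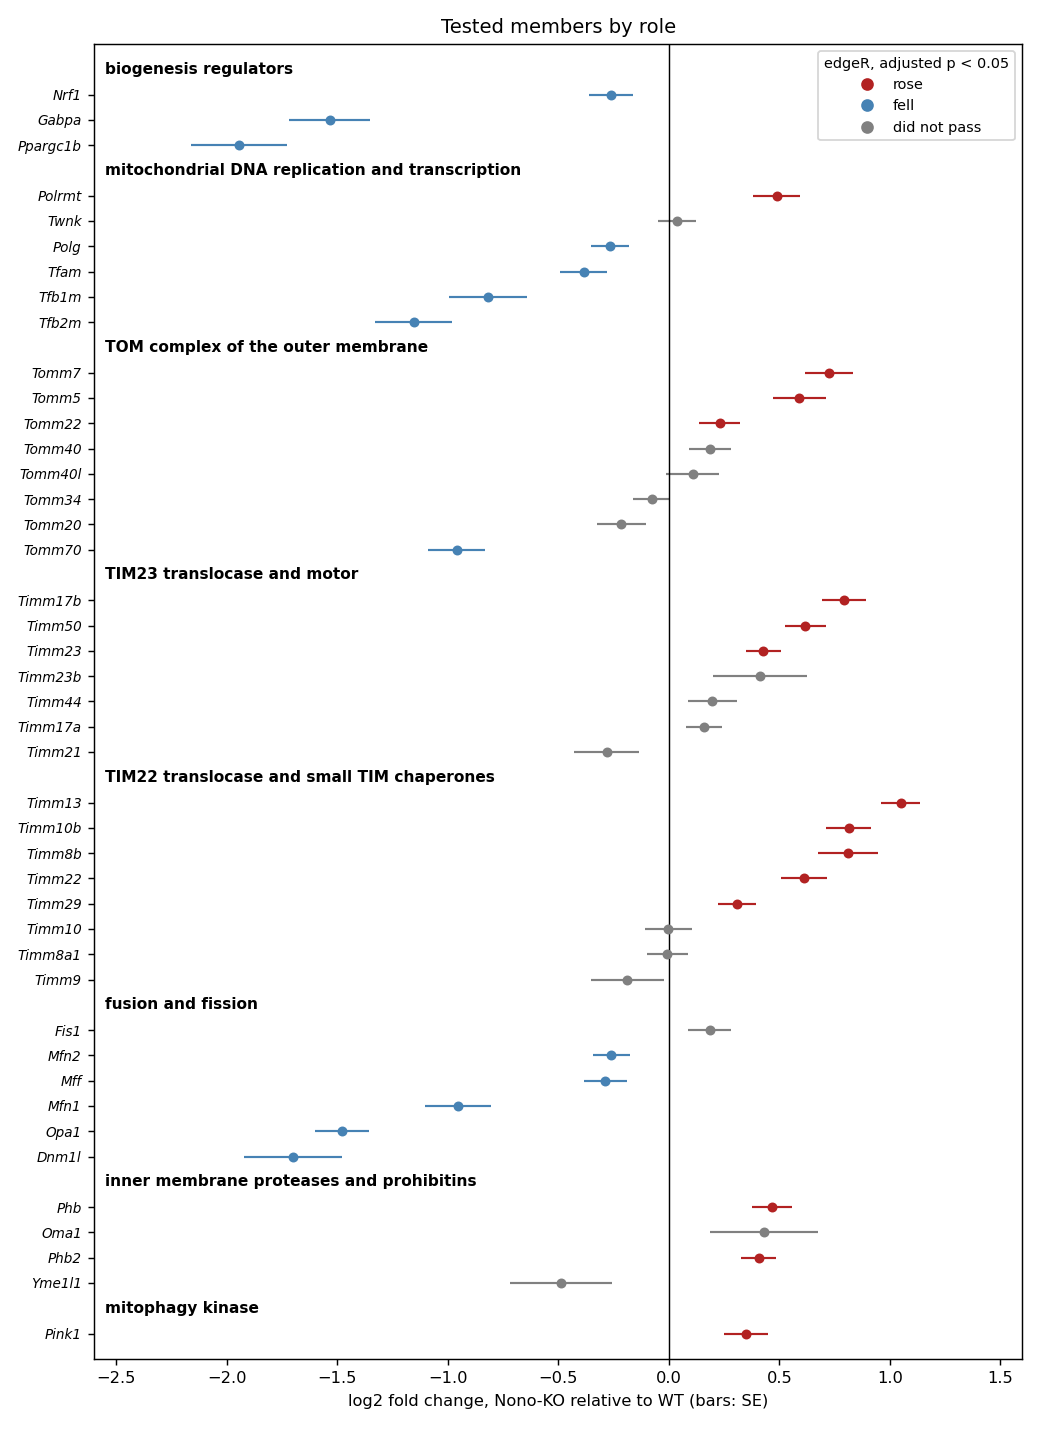
Log2 fold change, Nono-KO over WT (horizontal axis; bars are standard errors) for the 43 tested genes, grouped by role, with genes that rose in red, genes that fell in blue and those that did not pass in grey. Biogenesis regulators and fusion and fission genes lie mostly left of 0, down to -1.95 for Ppargc1b, and translocase genes mostly right of it, up to 1.05 for Timm13.

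The 3 regulators of biogenesis that could be tested fell in Nono-KO cells (2 of 3 with DESeq2), where 38.1% of all genes tested fell. Ppargc1b, a coactivator of nuclear genes for oxidative metabolism, had 25, 23 and 36 counts in Nono-KO libraries 1 to 3, against 123, 102 and 116 in WT libraries 1 to 3. This came to 1.55 ± 0.322 CPM in Nono-KO and 6.01 ± 0.509 CPM in WT cells (± is the SD here and below, n = 3 each), scaled by the TMM method of edgeR, with a log2 fold change of -1.95 (SE 0.22, edgeR adjusted p = 9.14e-06). Its highest Nono-KO library lay far below its lowest WT library. Gabpa, the DNA-binding subunit of GABP (nuclear respiratory factor 2), had 76, 69 and 78 counts in Nono-KO libraries 1 to 3, against 216, 277 and 188 in WT libraries 1 to 3. It averaged 4.14 ± 0.302 CPM in Nono-KO and 12.0 ± 2.43 CPM in WT cells, a log2 fold change of -1.54 (SE 0.18, edgeR adjusted p = 1.51e-05). WT replicate 2 was the highest library, and the groups did not overlap.

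Nrf1, nuclear respiratory factor 1, had 609, 554 and 578 counts in Nono-KO libraries 1 to 3, against 775, 713 and 714 in WT libraries 1 to 3. Its means were 32.4 ± 2.83 CPM in Nono-KO and 38.8 ± 0.83 CPM in WT cells, a log2 fold change of -0.26 (SE 0.10, edgeR adjusted p = 0.0299). The change was small beside those of Gabpa and Ppargc1b, and the call was lost in 7 of 13 alternative settings, among them those without Nono-KO replicate 2 or 3 or WT replicate 3 (highest adjusted p 0.154). Ppargc1a, the best known coactivator of the family, had 0, 1 and 0 counts in Nono-KO libraries 1 to 3, against 0, 0 and 0 in WT libraries 1 to 3. With 1 count over all libraries it stayed under the floor of 3 counts a library, and no fold change is given.

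**Figure D2:**
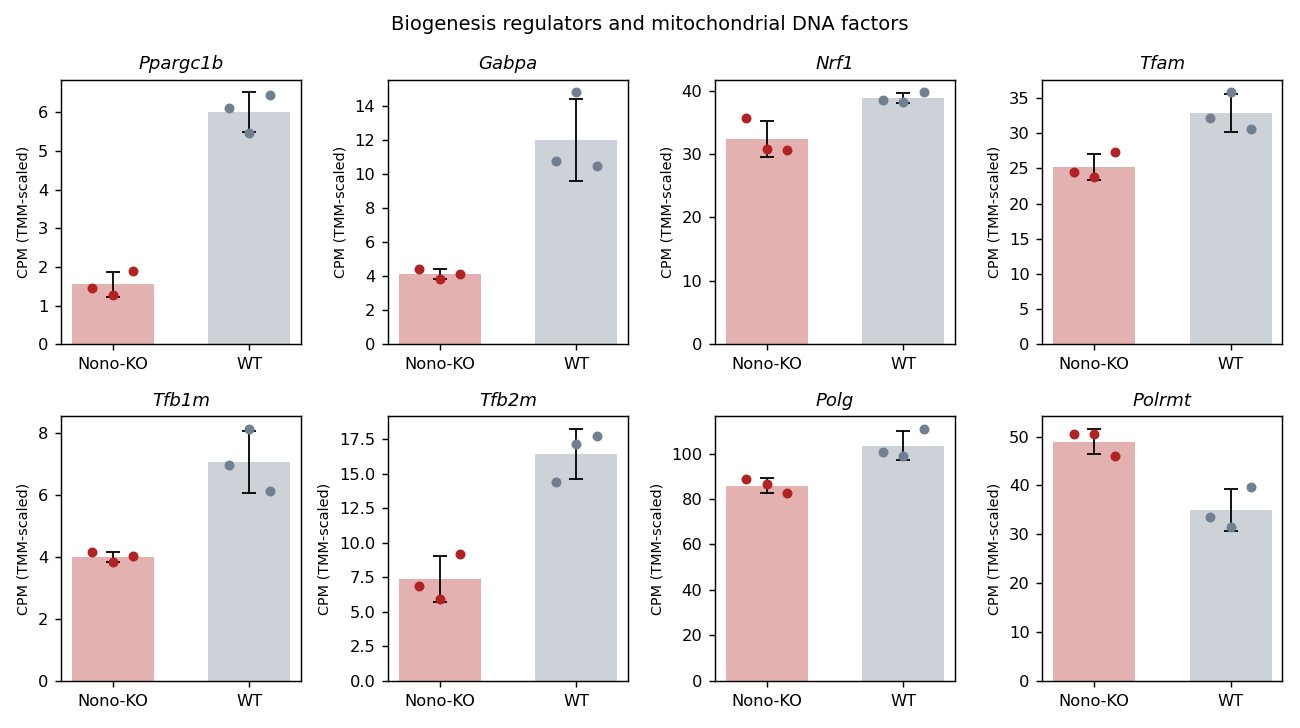
TMM-scaled CPM in Nono-KO (red) and WT (grey) libraries for 8 regulators of biogenesis and mitochondrial DNA factors; points are libraries, bars are means and error bars are SD (n = 3 each), and each panel has its own vertical axis from 0. For all but Polrmt the highest Nono-KO library is under the lowest WT library, and for Polrmt the lowest Nono-KO library is over the highest WT library. Of all genes tested, 39% were below and 36.1% above in this way. Twnk, whose groups overlapped, is not shown.

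Since Gabpa and Nrf1 are themselves among the genes, the RefSeq promoters of the genes were searched for the core letters that the factors are known to bind. The windows were the 250 bases before each annotated start in GRCr8, which is not the build of the authors' alignment, and 42 of the 47 genes matched an entry. The GABPA letters CCGGAAG, on either strand, were in 16 of the 42 (38.1%), against 9.52% of 19005 protein-coding promoters and 16.1% of the 9352 promoters of genes tested. The NRF1 letters GCGCANGCG were in 7 (16.7%), against 7.2% and 12.3%. The letters AANATGGC of YY1, a further factor known at such promoters, were in 5 (11.9%), against 4.27% and 5.1%. The 42 include Timm8a2, Tomm20l and Ppargc1a, which were not tested for expression, and of these only Timm8a2 had a match, to the GABPA letters. The GABPA letters were in 6 of 14 promoters of genes that rose (42.9%), in 5 of 12 of genes that fell (41.7%) and in 4 of 13 of genes that did not pass (30.8%). The NRF1 letters were in 3 of 14 that rose (21.4%), 2 of 12 that fell (16.7%) and 2 of 13 that did not pass (15.4%), and the YY1 letters in 1 of 14 (7.14%), 3 of 12 (25.0%) and 1 of 13 (7.69%). A match is a description of the letters and not a bound site.

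The 150 bases before the start are printed for 4 genes with the GABPA letters, of which Gabpa, Tomm70 and Tfam fell and Timm10b rose, and for 2 with the NRF1 letters, of which Opa1 fell and Tomm7 rose. Capitals mark the searched letters on either strand, and the last base is next to the annotated start. Gabpa lies at chr11:37375114-37375263 on the plus strand, Tomm70 at chr11:56886277-56886426 on the minus strand, Tfam at chr20:17355223-17355372 on the plus strand, Timm10b at chr1:169392205-169392354 on the plus strand, Opa1 at chr11:84689901-84690050 on the minus strand and Tomm7 at chr4:12197353-12197502 on the plus strand. In the Gabpa promoter the second run of capitals is a YY1 match, and in the Tomm7 promoter matches on both strands overlap in 1 run.
Gabpa: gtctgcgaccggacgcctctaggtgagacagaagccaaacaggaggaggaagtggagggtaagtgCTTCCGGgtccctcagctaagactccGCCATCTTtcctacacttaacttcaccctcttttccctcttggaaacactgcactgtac
Tomm70: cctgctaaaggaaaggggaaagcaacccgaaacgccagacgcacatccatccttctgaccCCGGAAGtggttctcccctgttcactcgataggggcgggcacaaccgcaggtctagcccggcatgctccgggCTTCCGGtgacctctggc
Tfam: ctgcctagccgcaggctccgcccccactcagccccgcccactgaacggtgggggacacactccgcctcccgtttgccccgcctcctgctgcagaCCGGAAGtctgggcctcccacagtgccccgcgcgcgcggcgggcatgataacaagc
Timm10b: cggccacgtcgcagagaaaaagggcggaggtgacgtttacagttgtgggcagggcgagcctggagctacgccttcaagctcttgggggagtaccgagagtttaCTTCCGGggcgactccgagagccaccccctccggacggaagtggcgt
Opa1: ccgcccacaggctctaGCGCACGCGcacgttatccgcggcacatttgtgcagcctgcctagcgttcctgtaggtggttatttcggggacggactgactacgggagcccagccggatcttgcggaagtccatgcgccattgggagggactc
Tomm7: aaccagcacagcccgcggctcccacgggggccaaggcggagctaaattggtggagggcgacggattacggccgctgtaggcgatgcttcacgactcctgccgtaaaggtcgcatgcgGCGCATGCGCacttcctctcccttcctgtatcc

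Of the 6 genes that replicate and transcribe mitochondrial DNA, 4 fell, 1 rose and 1 did not pass. The 66.7% that fell and 16.7% that rose compare with 38.1% and 34.2% of all genes tested. Tfb2m, which melts the promoter for the mitochondrial RNA polymerase, had 118, 107 and 174 counts in Nono-KO libraries 1 to 3, against 289, 321 and 319 in WT libraries 1 to 3. It averaged 7.36 ± 1.68 CPM in Nono-KO and 16.4 ± 1.8 CPM in WT cells, a log2 fold change of -1.16 (SE 0.17, edgeR adjusted p = 8.89e-05). Tfb1m, a methyltransferase of the small mitochondrial ribosomal RNA and a relative of Tfb2m, had 71, 69 and 76 counts in Nono-KO libraries 1 to 3, against 140, 152 and 110 in WT libraries 1 to 3. This corresponded to 4.01 ± 0.157 CPM in Nono-KO and 7.07 ± 1.01 CPM in WT cells, a log2 fold change of -0.82 (SE 0.18, edgeR adjusted p = 0.00134). Both had the lowest counts and the largest standard errors of this role, and in both the groups did not overlap.

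Tfam, whose promoter is printed above, had 418, 427 and 515 counts in Nono-KO libraries 1 to 3, against 648, 670 and 550 in WT libraries 1 to 3. The means were 25.2 ± 1.86 CPM in Nono-KO and 32.9 ± 2.67 CPM in WT cells, and the log2 fold change was -0.39 (SE 0.11, edgeR adjusted p = 0.00679). Polg, the catalytic subunit of the mitochondrial DNA polymerase, had 1515, 1557 and 1559 counts in Nono-KO libraries 1 to 3, against 2025, 1849 and 1991 in WT libraries 1 to 3. It averaged 85.9 ± 3.09 CPM in Nono-KO and 103.5 ± 6.41 CPM in WT cells, a log2 fold change of -0.27 (SE 0.08, edgeR adjusted p = 0.0138), and the call was lost in 4 of 13 alternative settings, among them those without Nono-KO replicate 2 or 3 (highest adjusted p 0.121). For both genes all Nono-KO libraries were below all WT libraries in scaled CPM.

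Polrmt, the mitochondrial RNA polymerase that works with Tfam and Tfb2m, moved the other way. It had 862, 907 and 869 counts in Nono-KO libraries 1 to 3, against 673, 590 and 714 in WT libraries 1 to 3. It averaged 49.0 ± 2.56 CPM in Nono-KO and 34.9 ± 4.28 CPM in WT cells, a log2 fold change of 0.49 (SE 0.11, edgeR adjusted p = 0.00137). Twnk, the replicative helicase, had 54.5 ± 0.637 CPM in Nono-KO and 53.1 ± 3.00 CPM in WT cells and did not pass (log2 fold change 0.04, edgeR adjusted p = 0.708). The RNAs of the polymerase and of its 2 cofactors thus changed in opposite directions in the same libraries.

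Transcripts of the import machinery were higher in Nono-KO libraries as a sum. The 26 Timm and Tomm genes together came to 1683, 1656 and 1655 CPM in the Nono-KO libraries, against 1350, 1384 and 1287 CPM in the WT libraries, a ratio of 1.24. The sum was higher for the TIM22 translocase with the small TIM chaperones (ratio 1.51) and for TIM23 (1.35), with no overlap of the groups. For the TOM complex the ratio was 1.06, and its groups overlapped. That sum includes the cochaperone Tomm34, at 61.3 CPM in Nono-KO and 64.6 CPM in WT cells. A sum is dominated by abundant transcripts, so the genes are given singly. Several of them have close relatives in the genome (Timm23 and Timm23b, Timm17a and Timm17al1, Tomm20 and Tomm20l, Tomm40 and Tomm40l, Timm8a1 and Timm8a2), among which the counting may have split or dropped shared reads.

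In the TOM complex a receptor fell while the small subunits Tomm5 and Tomm7 rose. Tomm70, a receptor for carrier precursors, was the only one of the 23 translocase genes that fell in the main edgeR test. It had 328, 340 and 476 counts in Nono-KO libraries 1 to 3, against 759, 845 and 726 in WT libraries 1 to 3. It averaged 21.1 ± 3.55 CPM in Nono-KO and 41.1 ± 3.76 CPM in WT cells, a log2 fold change of -0.96 (SE 0.13, edgeR adjusted p = 4.2e-05). Tomm20, the receptor for presequences, had 2684, 2889 and 3722 counts in Nono-KO libraries 1 to 3, against 3904, 4170 and 3247 in WT libraries 1 to 3. At 171.6 ± 22.1 CPM in Nono-KO and 199.3 ± 21.6 CPM in WT cells the groups overlapped, and it did not pass (log2 fold change -0.22, SE 0.11, edgeR adjusted p = 0.0983). It passed, as lower in Nono-KO, with no filter on low counts and without Nono-KO replicate 3 or WT replicate 3 (lowest adjusted p 0.0309).

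Tomm40, the channel through the outer membrane, had 2386, 2482 and 2410 counts in Nono-KO libraries 1 to 3, against 2301, 2022 and 2405 in WT libraries 1 to 3. At 135.1 ± 6.53 CPM in Nono-KO and 118.8 ± 13.4 CPM in WT cells it did not pass either (log2 fold change 0.19, SE 0.10, edgeR adjusted p = 0.103). Its paralog Tomm40l (0.11) and the cytosolic cochaperone Tomm34 (-0.08) did not pass. Tomm22, the central receptor, rose by little (log2 fold change 0.23, SE 0.09, edgeR adjusted p = 0.0408), and the call was lost in 9 of 13 alternative settings, among them leaving out any library but WT replicate 2 (highest adjusted p 0.227).

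Tomm7 and Tomm5, small subunits that assemble with the channel, rose. Tomm7 had 1488, 1530 and 1611 counts in Nono-KO libraries 1 to 3, against 993, 1143 and 814 in WT libraries 1 to 3. It averaged 85.8 ± 1.04 CPM in Nono-KO and 51.9 ± 8.21 CPM in WT cells, a log2 fold change of 0.72 (SE 0.11, edgeR adjusted p = 9.94e-05). Tomm5 had 842, 991 and 1101 counts in Nono-KO libraries 1 to 3, against 782, 739 and 532 in WT libraries 1 to 3. The means were 54.2 ± 4.6 CPM in Nono-KO and 36.0 ± 5.56 CPM in WT cells, and the log2 fold change was 0.59 (SE 0.12, edgeR adjusted p = 0.000943). In WT the lowest library was replicate 3 for both, and no Nono-KO library came down to any WT library. Tomm20l was at 5 to 7 counts in Nono-KO and 7 to 18 counts in WT libraries and was not tested.

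Of the 7 tested genes of the TIM23 translocase and its motor, 3 rose (42.9%, near the 34.2% of all genes tested; median log2 fold change 0.41). The number that fell was 0 with edgeR, also at an unadjusted p under 0.05, and 0 with DESeq2. Timm17b, a channel-forming partner of Timm23, had 1377, 1431 and 1300 counts in Nono-KO libraries 1 to 3, against 960, 759 and 785 in WT libraries 1 to 3. It averaged 76.3 ± 6.51 CPM in Nono-KO and 44.0 ± 3.6 CPM in WT cells, a log2 fold change of 0.79 (SE 0.10, edgeR adjusted p = 2.32e-05). Timm50, the receptor that takes presequences over from TOM, had 2508, 2763 and 2514 counts in Nono-KO libraries 1 to 3, against 1918, 1622 and 1806 in WT libraries 1 to 3. Its means were 144.5 ± 10.5 CPM in Nono-KO and 94.2 ± 6.96 CPM in WT cells, a log2 fold change of 0.62 (SE 0.09, edgeR adjusted p = 8.71e-05).

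Timm23, the name-giving subunit, had 2100, 2169 and 2159 counts in Nono-KO libraries 1 to 3, against 1775, 1650 and 1608 in WT libraries 1 to 3. It averaged 119.3 ± 4.43 CPM in Nono-KO and 88.7 ± 0.697 CPM in WT cells, a log2 fold change of 0.43 (SE 0.08, edgeR adjusted p = 0.00045), and its WT libraries lay very close together. The others did not pass. They were Timm23b (0.41), Timm44, which anchors the motor (0.20), Timm17a (0.16) and Timm21 (-0.28), with edgeR adjusted p between 0.0982 and 0.135. Timm17al1 was at 6 to 9 counts in Nono-KO and 5 to 11 counts in WT libraries and was not tested.

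The TIM22 translocase and its small TIM chaperones held 5 genes that rose among 8 tested (62.5%, against 34.2% of all genes; median log2 fold change 0.46), and 0 fell with edgeR, at an unadjusted p under 0.05 or with DESeq2. Timm13, which forms a chaperone with Timm8 proteins in the intermembrane space, had 3359, 3424 and 3130 counts in Nono-KO libraries 1 to 3, against 1803, 1672 and 1580 in WT libraries 1 to 3. It averaged 184.3 ± 16.3 CPM in Nono-KO and 89.0 ± 0.957 CPM in WT cells, a log2 fold change of 1.05 (SE 0.09, edgeR adjusted p = 1.24e-06), the largest rise among the 43 genes. Timm10b, a small TIM that docks at TIM22, had 595, 622 and 665 counts in Nono-KO libraries 1 to 3, against 425, 364 and 340 in WT libraries 1 to 3. Its means were 34.9 ± 0.303 CPM in Nono-KO and 19.8 ± 1.16 CPM in WT cells, a log2 fold change of 0.81 (SE 0.10, edgeR adjusted p = 1.98e-05), with the 3 Nono-KO libraries almost equal after scaling.

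Timm8b, a partner of Timm13, also rose, with 46.9 ± 4.62 CPM in Nono-KO and 26.7 ± 4.78 CPM in WT cells and a log2 fold change of 0.81 (SE 0.14, edgeR adjusted p = 0.000207). Timm22, the channel itself, rose at 46.3 ± 4.84 CPM in Nono-KO and 30.3 ± 1.11 CPM in WT cells (log2 fold change 0.61, SE 0.10, edgeR adjusted p = 0.000218). Timm29, a subunit of the human TIM22 complex, rose by less (log2 fold change 0.31, SE 0.09, edgeR adjusted p = 0.00648), and under a test for a change beyond 0.2 its call was lost. The chaperones Timm9 (-0.19), Timm10 (-0.0021) and Timm8a1 (-0.0083) did not pass. Timm9 and Timm10 form the main carrier chaperone together, and their ratio overlapped between the groups. Timm8a2 was at 0 to 2 counts in every library and was not tested.

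Of the 6 fusion and fission genes 5 fell (83.3%, against 38.1% of all genes tested; median log2 fold change -0.62), and 0 rose with edgeR, at an unadjusted p under 0.05 or with DESeq2. The calls of Mfn2 and Mff were lost in some alternative settings, and Fis1 did not pass. Dnm1l, the dynamin that constricts the organelle, had 72, 102 and 103 counts in Nono-KO libraries 1 to 3, against 257, 424 and 262 in WT libraries 1 to 3. It averaged 5.11 ± 0.79 CPM in Nono-KO and 16.7 ± 5.27 CPM in WT cells, a log2 fold change of -1.70 (SE 0.22, edgeR adjusted p = 3.1e-05). WT replicate 2 stood above the other WT libraries, but the lowest WT library was still over the highest Nono-KO library. Opa1, the inner membrane fusion dynamin whose promoter is printed above, had 261, 244 and 270 counts in Nono-KO libraries 1 to 3, against 692, 802 and 774 in WT libraries 1 to 3. The means were 14.4 ± 0.845 CPM in Nono-KO and 40.1 ± 4.94 CPM in WT cells, and the log2 fold change was -1.48 (SE 0.12, edgeR adjusted p = 9.7e-07).

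Both mitofusins of the outer membrane fell. Mfn1 had 194, 206 and 258 counts in Nono-KO libraries 1 to 3, against 394, 516 and 424 in WT libraries 1 to 3. It averaged 12.2 ± 1.3 CPM in Nono-KO and 23.6 ± 3.99 CPM in WT cells, a log2 fold change of -0.95 (SE 0.15, edgeR adjusted p = 0.000116). Mfn2 had 1944, 1979 and 2233 counts in Nono-KO libraries 1 to 3, against 2927, 2402 and 2444 in WT libraries 1 to 3. Its means were 114.0 ± 4.05 CPM in Nono-KO and 136.7 ± 8.61 CPM in WT cells, a log2 fold change of -0.26 (SE 0.08, edgeR adjusted p = 0.0146), and the call was lost in 4 of 13 alternative settings, among them those without Nono-KO replicate 1 or 2 (highest adjusted p 0.132).

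Of the outer membrane proteins of fission, Mff, a receptor for Dnm1l, fell slightly, at 74.5 ± 7.59 CPM in Nono-KO and 90.9 ± 6.3 CPM in WT cells (log2 fold change -0.29, SE 0.10, edgeR adjusted p = 0.0202), a call lost in 4 of 13 alternative settings, among them those without Nono-KO replicate 1 or 2 or WT replicate 2 (highest adjusted p 0.115). Fis1, an adaptor, had 175.4 ± 10.9 CPM in Nono-KO and 154.4 ± 15.5 CPM in WT cells and did not pass (log2 fold change 0.18, SE 0.10, edgeR adjusted p = 0.102). The sum over the 6 genes was 397, 392 and 398 CPM in the Nono-KO libraries, against 436, 485 and 467 CPM in the WT libraries. The ratio was 0.855, and Fis1, Mfn2 and Mff supplied most of the sum.

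**Figure D3:**
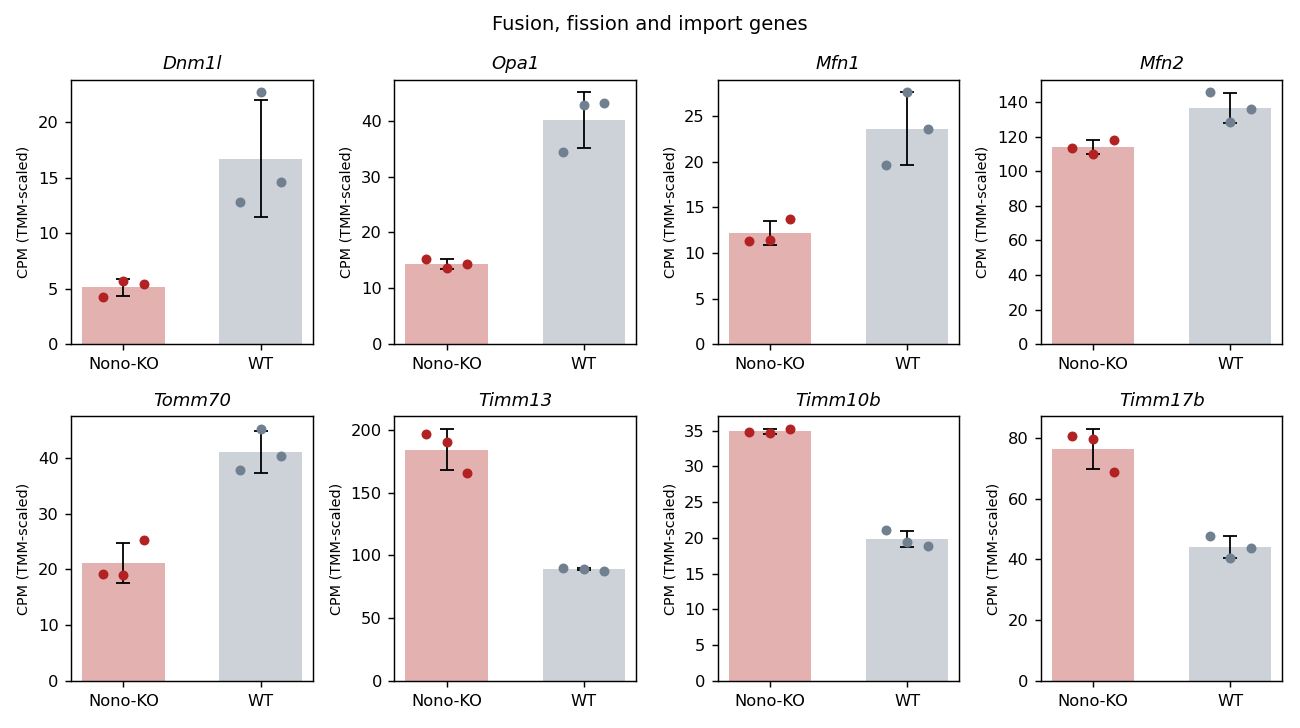
TMM-scaled CPM in Nono-KO (red) and WT (grey) libraries for 4 fusion and fission genes (upper row) and 4 import genes (lower row); points are libraries, bars are means and error bars are SD (n = 3 each), with a separate vertical axis from 0 in each panel. Dnm1l, Opa1, Mfn1, Mfn2 and Tomm70 have their highest Nono-KO library under the lowest WT library, and Timm13, Timm10b and Timm17b have their lowest Nono-KO library over the highest WT library. Of all genes tested, 39% were below and 36.1% above in this way. The panels are a selection, and genes with overlapping groups, such as Fis1, Tomm20 and Tomm40, are not shown.

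Both prohibitins, which form a ring-shaped scaffold in the inner membrane, rose. Phb had 4098, 4287 and 4042 counts in Nono-KO libraries 1 to 3, against 3084, 3197 and 3175 in WT libraries 1 to 3. It averaged 230.8 ± 14.5 CPM in Nono-KO and 167.0 ± 12.1 CPM in WT cells, a log2 fold change of 0.47 (SE 0.09, edgeR adjusted p = 0.000525). Phb2 had 5511, 5992 and 5620 counts in Nono-KO libraries 1 to 3, against 4901, 4450 and 4272 in WT libraries 1 to 3. The means were 317.8 ± 18.4 CPM in Nono-KO and 239.8 ± 3.47 CPM in WT cells, and the log2 fold change was 0.41 (SE 0.08, edgeR adjusted p = 0.000627). The log2 ratio of Phb to Phb2 differed by 0.06 between the groups, which overlapped.

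The proteases that cut Opa1 did not pass. Oma1, which is activated by stress, had 70, 58 and 97 counts in Nono-KO libraries 1 to 3, against 77, 57 and 42 in WT libraries 1 to 3 (log2 fold change 0.43, SE 0.25, edgeR adjusted p = 0.134). Yme1l1 had 194, 197 and 281 counts in Nono-KO libraries 1 to 3, against 281, 467 and 239 in WT libraries 1 to 3 (log2 fold change -0.49, SE 0.23, edgeR adjusted p = 0.0773). Their standard errors were the largest among the 43 genes and their groups overlapped. Without WT replicate 1, the library that stood apart, both passed (lowest adjusted p over the alternatives 0.0335 for Oma1 and 0.0177 for Yme1l1). Pink1, the kinase that marks damaged mitochondria for mitophagy, rose. It had 568, 600 and 568 counts in Nono-KO libraries 1 to 3, against 514, 451 and 471 in WT libraries 1 to 3. It averaged 32.2 ± 1.87 CPM in Nono-KO and 25.3 ± 1.07 CPM in WT cells, a log2 fold change of 0.35 (SE 0.10, edgeR adjusted p = 0.00801).

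Ratios of paralogs or partners within a library do not depend on the scaling between libraries, so 11 such pairs were compared. A pair of the Ppargc1 coactivators was left out, as Ppargc1a stayed under that floor. In 7 pairs the groups did not overlap, and each of these had an exact two-sided permutation p of 0.1, the smallest that 3 against 3 libraries can give, or 0.157 when adjusted over the 11 pairs. No pair could therefore pass at 0.05. Among single genes, every Nono-KO library was above every WT library for 36.1% of all genes tested and below for 39%. The share for other gene pairs was not computed, so 7 of 11 is a description. The log2 ratio of Tomm20 to Tomm70 was 3.03, 3.09 and 2.97 in the Nono-KO libraries, against 2.36, 2.30 and 2.16 in the WT libraries, a difference of 0.75. The receptor that fell and the receptor that did not pass were thus set apart in every library.

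In 3 pairs of TIM genes the ratio to the b form was lower in Nono-KO libraries, without overlap. The log2 ratio of Timm8a1 to Timm8b averaged 0.03 ± 0.15 in Nono-KO and 0.86 ± 0.19 in WT libraries (SD, n = 3 each), a difference of -0.83. For Timm10 to Timm10b it averaged -0.53 ± 0.09 in Nono-KO and 0.29 ± 0.14 in WT libraries, a difference of -0.82. For Timm17a to Timm17b it averaged 0.27 ± 0.16 in Nono-KO and 0.90 ± 0.15 in WT libraries, a difference of -0.64. In each of these pairs the b form rose and its partner did not pass. Timm23b, the other TIM gene with a b name, did not pass (log2 fold change 0.41), and its ratio to Timm23 was not compared.

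The Mfn1 to Mfn2 log2 ratio averaged -3.23 ± 0.11 in Nono-KO and -2.54 ± 0.34 in WT libraries, a difference of -0.69. For Mff to Fis1 it averaged -1.24 ± 0.24 in Nono-KO and -0.76 ± 0.12 in WT libraries (-0.48), and for Oma1 to Yme1l1 -1.58 ± 0.15 in Nono-KO and -2.46 ± 0.58 in WT libraries (0.88). These last pairs were close to overlapping. Groups overlapped for Tomm40 to Tomm40l, Timm9 to Timm10, Tfb1m to Tfb2m and Phb to Phb2, with differences from -0.19 to 0.37.

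**Figure D4:**
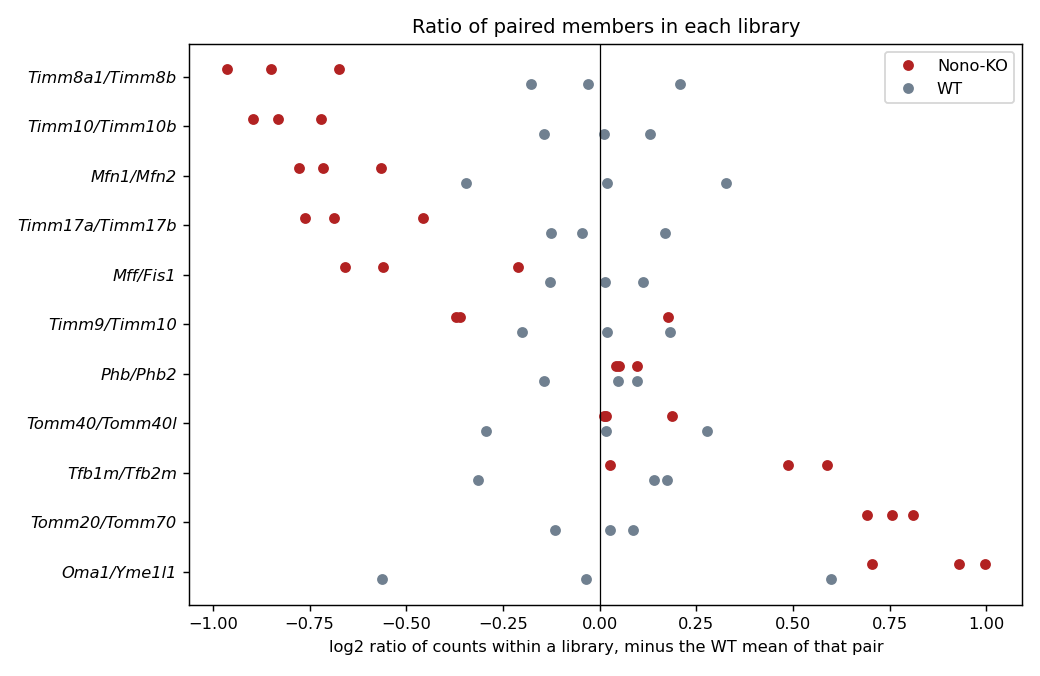
Log2 ratio of the counts of 2 genes within each library, shown minus the WT mean of that pair (horizontal axis), for 11 pairs (rows); each point is a library, Nono-KO in red above WT in grey. The 5 uppermost pairs lie left of the WT libraries in every Nono-KO library, the 2 lowest lie right of them, and the 4 in between overlap.

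Other genes of the same pathways, none of them in the rule, were taken from 6 lists. Together 47 of 129 tested genes rose (36.4%) and 51 fell (39.5%), near the 34.2% and 38.1% of all genes (median log2 fold change -0.07). Among genes of the import motor, sorting and processing, 16 of 25 rose (64%) and 4 fell (16%), with a median of 0.37. The largest rises were Pam16, a regulator of the motor, with 46.7 ± 1.95 CPM in Nono-KO and 11.6 ± 0.202 CPM in WT cells (log2 fold change 2.01, SE 0.10, edgeR adjusted p = 4.22e-08), then Gfer, the oxidase of the disulfide relay (1.35), and Timmdc1, an assembly factor of respiratory complex I (1.26). Hspa9, the ATPase that pulls proteins into the matrix, fell, with 81.8 ± 7.63 CPM in Nono-KO and 193.9 ± 21.8 CPM in WT cells (log2 fold change -1.24, SE 0.11, edgeR adjusted p = 1.25e-06). Grpel2, a nucleotide exchange factor for it (-0.79), and Mtx3, a metaxin of the outer membrane (-1.37), also fell. Grpel1, the other exchange factor, named after its values were seen, rose with 80.3 CPM in Nono-KO and 66.5 CPM in WT cells (log2 fold change 0.27, edgeR adjusted p = 0.0161). The motor genes therefore did not share a direction.

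The MICOS complex, which holds cristae junctions, had 4 of 7 genes that rose (57.1%) and 1 that fell (14.3%), with a median of 0.26. Of all genes tested 34.2% rose and 38.1% fell. Micos13 (1.22), Chchd6 (0.93) and Micos10 (0.33) rose, while Immt, the core subunit Mic60, fell with 45.8 ± 7.3 CPM in Nono-KO and 103.6 ± 7.42 CPM in WT cells (log2 fold change -1.18, SE 0.12, edgeR adjusted p = 4.43e-06). Of fission and fusion adaptors and inner membrane proteases, 8 of 21 rose (38.1%) and 8 fell (38.1%), near those shares (median 0.11). The proteases Clpp (1.24) and Htra2 (1.00) and the Dnm1l receptor Mief2 (0.86) rose. The actin nucleator Spire1 (-1.90), the protease subunit Afg3l2 (-0.97) and the outer membrane protein Slc25a46 (-0.91) fell.

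Of coregulators of biogenesis and energy sensors, 15 of 23 fell (65.2%) and 5 rose (21.7%), against 38.1% and 34.2% of all genes (median -0.67). The corepressor Ncor1 (-1.59), the GABP subunit Gabpb2 (-1.47) and Prkaa1, a catalytic subunit of AMP-activated kinase (-1.43), fell. The list is mixed in sense, as it holds activators and repressors. Sirt3, the mitochondrial deacetylase, rose with 27.3 ± 2.34 CPM in Nono-KO and 7.77 ± 0.728 CPM in WT cells (log2 fold change 1.81, SE 0.13, edgeR adjusted p = 3.84e-07), as did the kinase subunit Prkag1 (0.86) and the nuclear receptor Esrra (0.69).

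Of mitochondrial DNA maintenance and RNA genes, 13 of 30 fell (43.3%) and 7 rose (23.3%), against 38.1% and 34.2% of all genes (median -0.26). Fastkd2, an RNA-binding protein needed for the large mitochondrial ribosomal RNA, fell with 0.577 ± 0.219 CPM in Nono-KO and 6.56 ± 1.6 CPM in WT cells (log2 fold change -3.49, SE 0.31, edgeR adjusted p = 1.78e-06). Fastkd5 (-1.97) and Lrpprc, which stabilises mitochondrial messenger RNAs (-1.22), fell too. Endog, a nuclease (1.62), Fastk (1.08) and Polg2, the accessory subunit of the polymerase of Polg (0.63), rose. Of mitophagy genes 10 of 23 fell (43.5%) and 7 rose (30.4%), near the 38.1% and 34.2% of all genes (median -0.16), with 6 that fell when Nono-KO replicate 1 or 2 was left out. Usp15 (-1.57), Tbk1 (-1.38) and the receptor Bnip3l (-1.25) fell, whereas the receptor Fkbp8 (1.03), Map1lc3a (1.02) and Park7 (1.00) rose.

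As comparison sets, 67 of 82 nuclear genes of the respiratory chain and ATP synthase rose and 2 fell (median 0.66), and 48 of 74 mitochondrial ribosomal proteins rose and 3 fell (median 0.43). Both sets were taken by symbol alone. The first therefore also holds entries that are not subunits, such as the pseudogene Ndufa13-ps1 (0.90) and the inhibitor Atp5if1 (0.60), which both rose. The translocase genes had a smaller share that rose (47.8%, against 81.7% and 64.9%), and of all genes tested 34.2% rose. These shares are descriptions, and the difference between the sets was not tested. The regulators Ppargc1b and Gabpa and the cofactor Tfb2m were thus lower in the same libraries in which most respiratory chain subunit RNAs were higher.

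**Figure D5:**
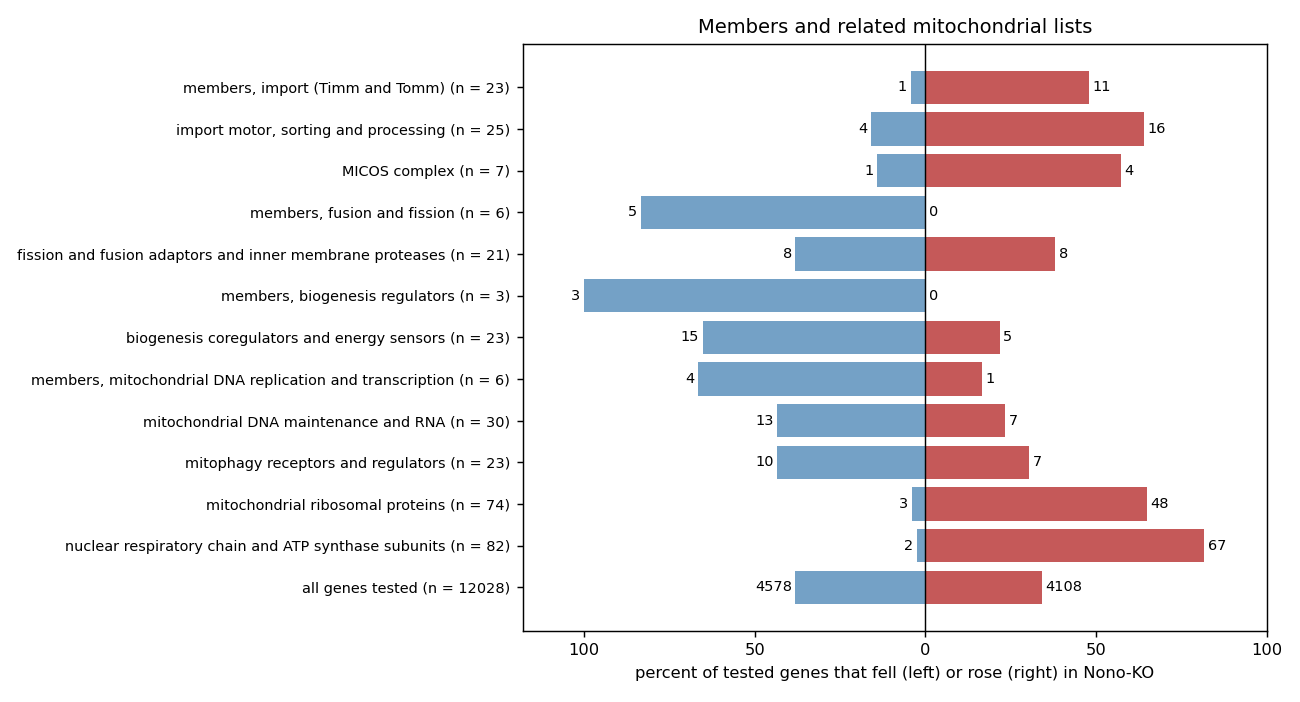
Percent of tested genes that rose (red, to the right) or fell (blue, to the left) in Nono-KO against WT by edgeR at an adjusted p under 0.05, for genes of the rule by role, related lists and comparison sets (rows, with the number tested); numbers beside bars are gene counts. Fusion and fission genes and regulators of biogenesis reach left (5 of 6 and 3 of 3), whereas respiratory chain subunits (67 of 82) reach right, against 34.2% and 38.1% of all genes.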

How the data were processed

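RNA-seq of 3 Nono-KO and 3 WT libraries was analysed. The authors deposited raw counts per gene symbol from stranded mRNA libraries, with no scaling and no pooling, and all 6 columns were used. For trimming, alignment and counting, Trimmomatic, HISAT2 and HTSeq with the build mRatBN7.2 stand in the submitters' processing notes, and Bowtie2 with Rn6 in the paper's methods. Tool versions, gene annotation and strandedness of counting were not given in the sources used here, so overlapping or antisense genes may share reads.

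Counts were tested in R 4.3.3 with the robust quasi-likelihood test of edgeR 4.0.16, TMM scaling and filterByExpr at its defaults. This left 12028 of 16319 genes, among them 43 of the 47 described. Benjamini-Hochberg adjustment was over all genes tested. Standard errors were obtained from the F statistic, as the size of the log2 fold change over the root of F. CPM values are not divided by gene length, so levels were not compared between genes. Log2 ratios had 0.5 added to each count. Alternatives were DESeq2 1.42.0, other scalings and filters, a replicate block, edgeR's glmTreat beyond 0.2 and leaving out each library.

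The genes and lists were chosen with earlier results of these data known, and roles within the translocases and the promoter letters were set after the files were seen. Full values are given for the 2 largest significant rises and falls of each role and for Tomm20, Tomm40, Timm23, Mfn1, Mfn2, Opa1, Dnm1l, Ppargc1a, Nrf1, Gabpa, Tfam, Polg, Pink1 and Phb2. Of related lists up to 3 rises and 3 falls are named, among genes whose higher group averaged 5 CPM or more. Promoters came from RefSeq (GRCr8), whose build differs from that of the counts, and protein sequences were not used here.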

Additional observations from a re-analysis of the deposited data

How the results depend on the processing

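Of the 28 genes called, 22 kept their call in all 13 alternatives, 6 lost it in 1 or more (Mff, Mfn2, Nrf1, Polg, Timm29 and Tomm22) and 0 changed direction, while 9 genes that did not pass did so in 1 or more. These were Oma1, Timm23b, Timm44 and Tomm40l without WT replicate 1, Yme1l1 without WT replicate 1 or 3, Tomm40 without Nono-KO replicate 3 or WT replicate 3, Fis1 without Nono-KO replicate 3, Timm17a with RLE size factors and Tomm20. Genes that rose ranged from 13 to 18 over the alternatives and genes that fell from 9 to 14. Without WT replicate 1, the library that stood apart, 18 rose and 14 fell. The median log2 fold change of all genes was -0.05, 0.00 with RLE size factors, -0.11 with total counts only, 0.03 with no filter and 0.10 with DESeq2, where that of the genes described was 0.14. The medians with no filter (16319 genes) and with DESeq2 also cover genes with low counts that the main test of 12028 left out. Over all alternatives the translocase median lay between 0.17 and 0.31. Translocase genes that fell were 2 with no filter on low counts and 1 to 2 when libraries were left out. With total counts only, 0 genes rose past the study's thresholds, where Timm13 did otherwise. Mitophagy genes that fell ranged from 6 to 10 when libraries were left out. The cause of these differences was not tested. The replicate numbers did not pair the libraries: deviations of libraries with the same number correlated between -0.19 and 0.05. With the replicate block 14 genes rose and 12 fell. The 4 genes not tested had at most 18 counts in any library.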
